A study of Mus musculus with 6 samples.

Results

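The 10 genes described here encode the SOX transcription factors of cartilage and the proteins, other than collagens, that build its matrix. They are Sox9, Sox5, Sox6, Acan, Hapln1, Comp, Matn1, Matn3, Cnmd and Ucma, a list of symbols read from a count table of 55471 genes. All 10 passed the filter on low counts, which kept 13826 genes in all. RNA sequencing of poly(A) RNA was carried out on calvarial osteoblasts, bone-forming cells digested from the skull cap, of 3-day-old C57BL/6 mice after 3 days in culture. The WT group (3 libraries) is given as wild type, with no further allele stated. The TCKO group (3 libraries) carries Prx1-Cre together with Tet1fl/fl, Tet2fl/fl and Tet3fl/fl, and is a triple conditional knockout. TET enzymes oxidise 5-methylcytosine, a step towards its removal. The Prx1 promoter drives the recombinase in limb and part of the skull mesenchyme, so cells of other origin in the digested bone keep their Tet genes. Whether a library holds cells of 1 mouse or of several is not given in the sources used here, so p-values measure only the spread between these libraries.

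SOX9 is the transcription factor that commits mesenchymal cells to cartilage, and SOX5 and SOX6 are close relatives of each other that assist SOX9 on the enhancers of cartilage matrix genes. Aggrecan, the product of Acan, is a large proteoglycan whose chondroitin sulfate chains hold water in cartilage. The link protein HAPLN1 fastens it to hyaluronan, and COMP and the matrilins connect collagen fibrils with each other and with proteoglycans. Parietal bone forms directly in mesenchyme without a cartilage template, and cartilage lies close to it in the newborn skull.

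Of the 10 genes, 9 were lower in the libraries labelled TCKO, by between 2.12-fold (Sox9) and 21.9-fold (Cnmd), and Matn3 differed in the other direction without passing the test. To be called, a gene needed an adjusted p under 0.05 and a change of over 2-fold in edgeR's quasi-likelihood test with Benjamini-Hochberg adjustment. By that rule 9 of 10 genes were called lower, where 3.19% of all tested genes were, and 0 were called higher, where 3.16% of all tested genes were. At any fold the same count of 9 was lower, against 8.63% of tested genes, and 0 were higher, against 9.07%. The median log2 fold change was -1.82 over the 10 genes and 0.00 over all tested genes. The 10 genes together took between 0.0699% and 0.0728% of the counts of a WT library and between 0.0173% and 0.0202% of those of a TCKO library.

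Totals ran from 8019999 to 10177214 counts, so that 3 counts, the most that an observed count of 0 is taken to hide, stood for 0.299 to 0.373 CPM (counts scaled to library size). Replicate 3 of both genotypes stood apart from replicates 1 and 2, with chi-square values per degree of freedom of 16.5 to 23.3 in pairs with replicate 3, against 1.69 (WT) and 2.04 (TCKO) between replicates 1 and 2. Mitochondrial genes took 2.22% and 2.47% of the counts in replicate 3 and between 1.11% and 1.24% elsewhere, and TCKO replicate 3 held 4583 Xist counts and 0 of Ddx3y, whereas the other 5 libraries held 1 to 4 of Xist and 675 to 1094 of Ddx3y. Contrasts of TCKO with WT in replicate 3 thus compare libraries that also differ in these sex-linked genes. The labels give no sex, and its part in those contrasts was not tested. Of the targeted genes, Tet1 was lower in TCKO (log2 fold change -0.97 ± 0.16, SE, adjusted p = 0.00648), Tet2 did not pass the test (-0.14 ± 0.14, adjusted p = 0.545) and Tet3 was higher (0.51 ± 0.09, adjusted p = 0.00745). Counts over whole genes do not separate the deleted exons from the rest, so TCKO stands below for the libraries labelled as such.

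TET enzymes act on methylated cytosines, which in mammals lie mostly in CpG dinucleotides, so the CpG content of the start sites is shown here. RefSeq start sites were matched for 8 of the 10 genes, and the table used here had none for Sox9 and Comp. In the 250 bases before the start, Acan held 26 CpG (percentile 91.4 among 32841 promoters), Matn3 14, Matn1 and Ucma 4 each, Sox5 3, Hapln1 2 and Cnmd 0, and the 6 starts of Sox6 held between 1 and 10. The median of all promoters was 6, with quartiles at 2 and 16. Some of these starts are internal. The windows of Sox5 (143947107 to 143947356) and Hapln1 (89540386 to 89540635) lie inside genes whose 5′ ends are at 144781977 and 89539796. Of the Sox6 windows, that at 116038745 to 116038994 reaches the 5′ end at 116038796, and the others lie inside the gene. Their values do not describe the outermost start of the gene. The 4 sequences that follow are those with the most and the fewest CpG, Acan and Cnmd, and those of the 2 matrilins, whose fitted changes had opposite signs. They are read 5′ to 3′ on the strand of the gene in GRCm38.p6, each ends at the base before the start, and capitals mark CpG. Acan lies at chr7:79052976-79053225 (plus strand), Cnmd at chr14:79662184-79662433 (minus strand), Matn1 at chr4:130944135-130944384 (plus strand) and Matn3 at chr12:8947679-8947928 (plus strand).
Acan: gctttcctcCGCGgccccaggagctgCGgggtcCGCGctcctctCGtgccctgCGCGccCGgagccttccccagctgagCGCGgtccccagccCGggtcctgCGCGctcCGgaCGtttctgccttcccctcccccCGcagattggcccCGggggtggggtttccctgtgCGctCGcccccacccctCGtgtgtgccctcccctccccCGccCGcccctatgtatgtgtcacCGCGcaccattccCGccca
Cnmd: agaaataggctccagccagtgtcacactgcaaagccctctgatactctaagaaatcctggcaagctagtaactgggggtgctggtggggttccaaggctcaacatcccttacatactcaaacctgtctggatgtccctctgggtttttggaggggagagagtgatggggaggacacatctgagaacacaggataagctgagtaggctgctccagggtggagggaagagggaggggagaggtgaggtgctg
Matn1: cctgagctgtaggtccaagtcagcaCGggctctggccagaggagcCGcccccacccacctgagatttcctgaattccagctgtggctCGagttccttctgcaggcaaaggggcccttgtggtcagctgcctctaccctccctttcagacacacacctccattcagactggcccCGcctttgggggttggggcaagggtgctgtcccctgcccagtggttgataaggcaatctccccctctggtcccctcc
Matn3: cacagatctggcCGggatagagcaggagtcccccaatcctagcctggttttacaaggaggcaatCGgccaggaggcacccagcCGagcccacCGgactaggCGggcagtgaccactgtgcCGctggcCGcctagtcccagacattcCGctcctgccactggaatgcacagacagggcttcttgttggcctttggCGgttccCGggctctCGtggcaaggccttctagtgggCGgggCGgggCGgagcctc
Called genes thus stood at both ends of the range of CpG content. The methylation of these windows was not analysed here.

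The same windows were searched on both strands for ACAAAG and ACAATG, core letters bound by SOX proteins, and for TGTGGT, the core letters bound by RUNX proteins, none of which contains another. One or both SOX words occurred in 25.2% of all promoters and TGTGGT in 14.0%. Sox5 held 1 SOX word, 5 of the 6 starts of Sox6 held between 1 and 4, and the windows of Acan, Hapln1, Matn1, Matn3, Cnmd and Ucma held 0. TGTGGT occurred 1 time each before Hapln1, Matn1, Ucma and 2 of the Sox6 starts. As above, the windows of Sox5, Hapln1 and most Sox6 starts lie inside the genes.

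All 3 SOX factors were called lower, by between 2.12-fold and 2.50-fold. Sox9 (ENSMUSG00000000567, GRCm38 chromosome 11, 112782224 to 112787760, plus strand) gave 942, 1044 and 583 counts in WT libraries 1, 2 and 3 against 410, 377 and 383 in the TCKO libraries. In CPM these were 114, 104 and 70.7 against 46.8, 46.9 and 43.0, so the groups did not overlap and WT replicate 3 lay nearest to TCKO. The mean fell from 96.3 ± 22.7 to 45.5 ± 2.23 CPM (SD, n = 3). The fitted log2 fold change was -1.08 ± 0.17 (SE, 95% interval -1.47 to -0.69, adjusted p = 0.00470). Without WT replicate 1 the change was -0.94, still past the adjusted threshold but under 2-fold.

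Sox5 (ENSMUSG00000041540, chromosome 6, 143828425 to 144781977, minus strand) gave 91, 137 and 116 counts in the WT libraries against 43, 46 and 45 in the TCKO libraries. Its level was 11.02, 13.7 and 14.1 CPM against 4.91, 5.72 and 5.05 CPM, and every WT library exceeded every TCKO library. The fitted change was -1.31 ± 0.16 (SE, 95% interval -1.69 to -0.93, adjusted p = 0.00190). Sox6 (ENSMUSG00000051910, chromosome 7, 115470872 to 116038796, minus strand) gave 723, 904 and 548 counts in the WT libraries against 320, 281 and 235 in the TCKO libraries. In CPM, Sox6 stood at 87.5, 90.2 and 66.4 in WT and at 36.5, 34.9 and 26.4 in TCKO, with replicate 3 the lowest of each group. The change of Sox6, -1.32 ± 0.16 (SE, 95% interval -1.69 to -0.95, adjusted p = 0.00163), was close to that of Sox5. Antisense and intronic genes annotated within Sox5 and Sox6 held at most 2 counts in any library.

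The balance among the 3 factors was compared inside each library as the log2 ratio of their CPM (2 added to each value). Sox9 over Sox5 was 2.698 ± 0.492 in WT and 2.719 ± 0.088 in TCKO (SD, n = 3), a difference of 0.02 (exact permutation test, two-sided, p = 0.9, adjusted over 5 gene pairs, 0.9). For Sox9 over Sox6 the difference was 0.25 (exact p = 0.2, adjusted 0.333) and for Sox5 over Sox6 it was 0.23 (exact p = 0.4, adjusted 0.5). With 3 libraries against 3 the smallest exact p is 0.1, and leaving out 1 library at a time moved the Sox9 over Sox5 difference between -0.24 and 0.25. With 0.5 added in place of 2 the differences were 0.18 for Sox9 over Sox5, 0.26 for Sox9 over Sox6 and 0.08 for Sox5 over Sox6. These tests leave out the replicate number. With 2 added, Sox5 over Sox6 was higher in TCKO for 3 of 3 numbers (-2.78 to -2.48, -2.56 to -2.26 and -2.09 to -2.01). That count rested on the added 2. In plain CPM, Sox5 was 2.24-fold, 2.39-fold and 2.79-fold lower in TCKO in replicates 1, 2 and 3, and Sox6 2.40-fold, 2.58-fold and 2.52-fold. In replicate 3 Sox5 thus fell by more than Sox6.

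**Figure D1:**
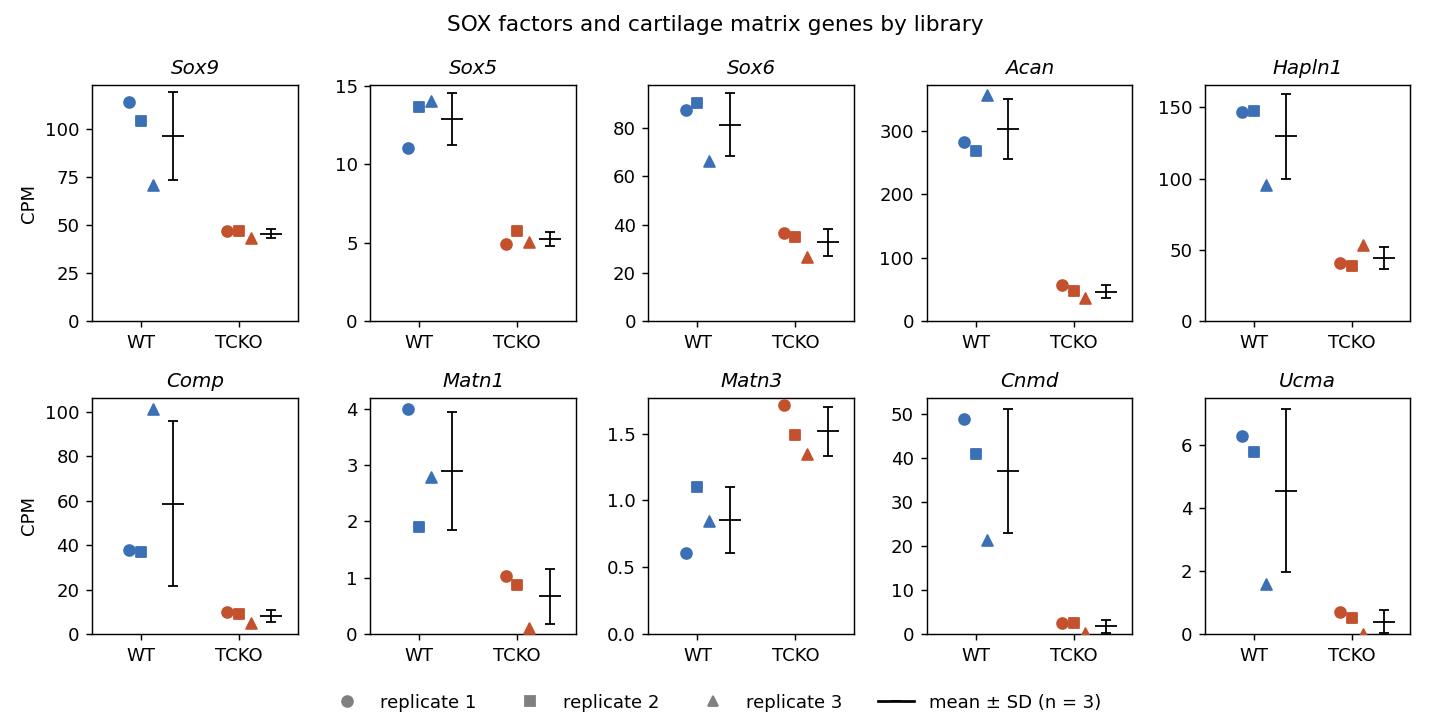
Level of each of the 10 genes in CPM (y axis, linear from 0, own scale for each gene) in the WT and TCKO libraries, with a marker shape for each replicate number and the mean ± SD of 3 libraries beside each group. WT libraries lie above TCKO libraries for 9 genes, and Matn3, at 0.605 to 1.71 CPM, is the exception.

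The aggrecan gene was called lower by 6.51-fold. Acan (ENSMUSG00000030607, chromosome 7, 79053483 to 79115099, plus strand) gave 2335, 2690 and 2943 counts in the WT libraries against 493, 379 and 321 in the TCKO libraries. These were 283, 268 and 357 CPM against 56.3, 47.1 and 36.01 CPM, with WT replicate 3 the highest and TCKO replicate 3 the lowest of the 6. The mean fell from 303 ± 47.4 to 46.5 ± 10.2 CPM (SD, n = 3), a change of -2.70 ± 0.18 on the log2 scale (SE, 95% interval -3.12 to -2.29, adjusted p = 0.000129).

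Hapln1 (ENSMUSG00000021613, chromosome 13, 89539796 to 89611652, plus strand), which encodes the link protein, was called lower by 2.94-fold. It gave 1214, 1475 and 788 counts in the WT libraries against 355, 312 and 476 in the TCKO libraries, that is 147, 147 and 95.5 CPM against 40.5, 38.8 and 53.4 CPM. Here replicate 3 was the lowest WT library and the highest TCKO library, the reverse of Acan, and the groups did not overlap. The fitted change was -1.55 ± 0.19 (SE, 95% interval -2.002 to -1.11, adjusted p = 0.00188). Gm8546, a processed pseudogene inside Hapln1, held between 84 and 127 counts, and how reads shared with it were counted is not stated.

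Within libraries the log2 ratio of Acan to Hapln1 was 1.22 ± 0.57 in WT and 0.06 ± 0.53 in TCKO (SD, n = 3), a difference of -1.16. The 3 WT ratios (0.93, 0.86 and 1.88) all exceeded the 3 TCKO ratios (0.45, 0.27 and -0.54), which gives the smallest exact permutation p of this design (two-sided p = 0.1, adjusted 0.25). Acan differed by more than Hapln1 in each of the 3 pairs of libraries with the same number, and no result of this test could fall under 0.05.

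Of the oligomeric adaptors, Comp and Matn1 were called lower and Matn3 was not called. Comp (ENSMUSG00000031849, chromosome 8, 70373558 to 70382066, plus strand), a thrombospondin family protein of cartilage and tendon, gave 314, 368 and 838 counts in the WT libraries against 86, 74 and 46 in the TCKO libraries. In CPM, WT replicates 1 and 2 stood at 38.0 and 36.7 and replicate 3 at 102, against 9.82, 9.20 and 5.16 in TCKO. The change was -2.86 ± 0.46 (SE, 95% interval -3.93 to -1.80, adjusted p = 0.00543). Its size rested in part on replicate 3, being -2.21 without WT replicate 3, with the call kept, and -1.97 without replicate 3 of both genotypes. The call was kept there too, but replicates 1 and 2 differ little from each other, so that fit measures a narrow spread.

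Matn1 (ENSMUSG00000040533, chromosome 4, 130944385 to 130955475, plus strand), which encodes the matrilin of hyaline cartilage, was near the detection floor and gave 33, 19 and 23 counts in the WT libraries against 9, 7 and 1 in the TCKO libraries. The WT libraries, at 3.996, 1.90 and 2.79 CPM, lay above the TCKO libraries, at 1.03, 0.870 and 0.112 CPM, the last being under the 3-count floor. The change of -2.09 ± 0.56 (SE, 95% interval -3.40 to -0.78, adjusted p = 0.0394) was called. That call was lost on leaving out WT replicate 1 (adjusted p = 0.140), WT replicate 2 (0.0653), WT replicate 3 (0.0577), TCKO replicate 1 (0.0695) or TCKO replicate 2 (0.0936).

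Matn3 (ENSMUSG00000020583, chromosome 12, 8947929 to 8972028, plus strand), the matrilin of growth plate cartilage, gave 5, 11 and 7 counts in the WT libraries against 15, 12 and 12 in the TCKO libraries. Its levels of 0.605, 1.10 and 0.848 CPM in WT lay below the 1.71, 1.49 and 1.35 CPM of TCKO without overlap, at 5 to 15 counts per library. The log2 fold change of 0.81 ± 0.34 (SE, 95% interval 0.02 to 1.59) had an unadjusted p of 0.0448 and an adjusted p of 0.143. Taken as a ratio within each library with 2 added to each CPM, Matn1 over Matn3 was 0.76 ± 0.44 in WT and -0.41 ± 0.22 in TCKO on the log2 scale (SD, n = 3, difference -1.17, exact permutation test, two-sided, p = 0.1, adjusted 0.25). Both genes lie near or below the added 2, and with 0.5 added in its place the difference was -2.19.

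The 2 genes for small secreted or shed products had the largest fitted fold changes of the 10. Cnmd (ENSMUSG00000022025, chromosome 14, 79637690 to 79662170, minus strand), which encodes chondromodulin, a glycoprotein of avascular cartilage that inhibits vessel growth, gave 403, 409 and 176 counts in the WT libraries against 22, 20 and 1 in the TCKO libraries. In CPM these were 48.8, 40.8 and 21.3 against 2.51, 2.49 and 0.112, with replicate 3 the lowest in each group. The change was -4.45 ± 0.57 (SE, 95% interval -5.77 to -3.13, adjusted p = 0.00206), or 21.9-fold.

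Ucma (ENSMUSG00000026668, chromosome 2, 4976122 to 4985748, plus strand), which encodes a vitamin K-dependent protein secreted by chondrocytes, gave 52, 58 and 13 counts in the WT libraries against 6, 4 and 0 in the TCKO libraries. The 0 in TCKO replicate 3 allows a level of up to 0.337 CPM, and the other TCKO libraries stood at 0.685 and 0.497 CPM. WT replicates 1 and 2, at 6.30 and 5.79 CPM, were well above WT replicate 3, at 1.58 CPM, which still exceeded every TCKO library. The change of -3.51 ± 0.78 (SE, 95% interval -5.30 to -1.71, adjusted p = 0.0195) lost its call without WT replicate 1 (adjusted p = 0.0719), WT replicate 2 (0.0753), TCKO replicate 1 (0.0504) or TCKO replicate 2 (0.0662). Over such fits it ran from -4.19 without TCKO replicate 1 to -2.91 without TCKO replicate 3.

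**Figure D2:**
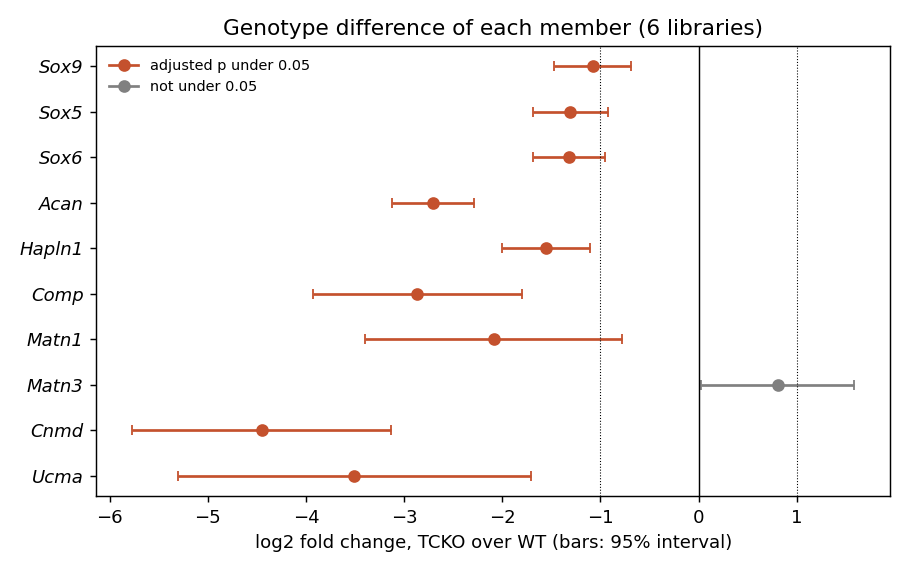
Log2 fold change of TCKO over WT for each gene (x axis) with its 95% interval from the fit over 6 libraries. Points in red had an adjusted p under 0.05, and dotted lines mark a 2-fold change. The intervals of Acan (-3.12 to -2.29), Hapln1, Comp, Cnmd (-5.77 to -3.13) and Ucma lie wholly beyond 2-fold, and Matn3 (0.02 to 1.59) is the gene in grey.

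How far the 9 lower genes depend on the close pair of replicates was examined by summing replicates 1 and 2 of each genotype. With 2 values per genotype left, 3 of the 9 kept an adjusted p under 0.05, namely Acan (0.0133), Sox5 (0.0399) and Sox6 (0.0448). The other 6 kept their direction, with adjusted p of 0.0541 for Comp, 0.0578 for Cnmd, 0.0587 for Hapln1, 0.0874 for Sox9, 0.168 for Ucma and 0.181 for Matn1. With the replicate number as a block in the summed data, 8 of the 9 passed the adjusted threshold and Matn1 did not (adjusted p = 0.0957). Of the 8, 7 were called, since Sox9 (-0.98) was under 2-fold there.

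The count of genes whose 3 WT libraries all exceeded their 3 TCKO libraries was 9 of 10, against 18.9% of all tested genes. The differences within each replicate number were of unequal size. Acan differed by -2.29, -2.46 and -3.24 on the log2(CPM + 2) scale in replicates 1, 2 and 3, and Comp by -1.76, -1.79 and -3.85, so both were furthest apart in replicate 3. The opposite held for Sox9 (-1.25, -1.12 and -0.69) and Hapln1 (-1.81, -1.87 and -0.82). Sox6 gave -1.22, -1.32 and -1.27, and Sox5 ran from -1.19 to -0.91. The added 2 makes the differences of Sox5 smaller here. In plain CPM Sox5 was 2.24-fold to 2.79-fold lower and Sox6 2.40-fold to 2.58-fold lower.

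For the genes near or under 2 CPM in TCKO the added 2 limits the size of a difference, so plain CPM ratios of WT over TCKO are given for them. Cnmd was 19.4-fold and 16.4-fold lower in TCKO in replicates 1 and 2, and 190.2-fold lower in replicate 3, where 176 counts stood against 1 (95% exact counting interval 33.7 to 7555). Ucma was 9.19-fold and 11.6-fold lower in replicates 1 and 2 and at least 4.68-fold lower in replicate 3, where TCKO held 0 counts and 3 were used in their place. Matn1 was 3.89-fold and 2.18-fold lower in replicates 1 and 2 and 24.9-fold lower in replicate 3 on 23 counts against 1 (interval 4.04 to 1024). Whether Ucma and Matn1 differed more or less in replicate 3 than in the other two was not measurable at this depth.

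**Figure D3:**
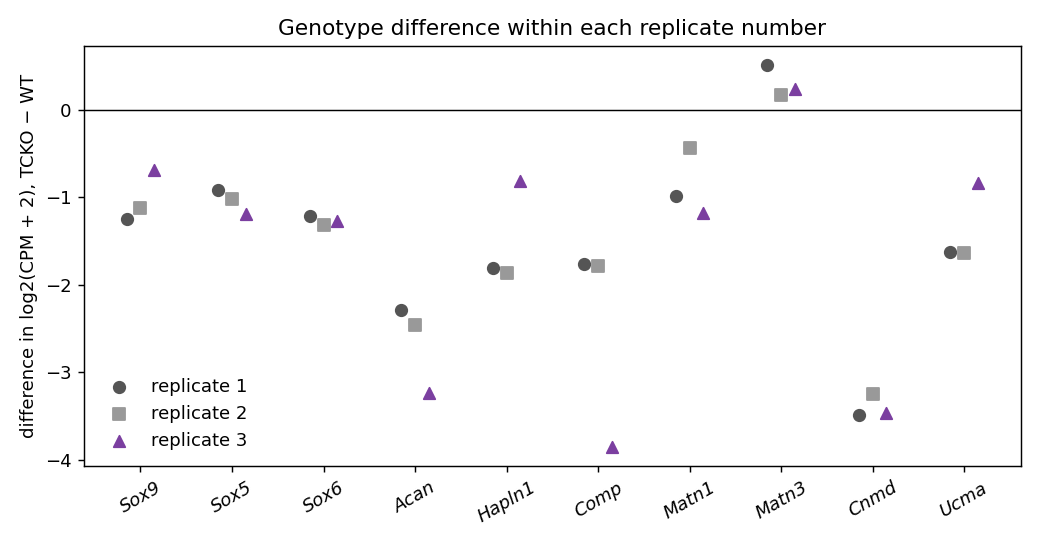
Difference between TCKO and WT in log2(CPM + 2) (y axis) for each gene, taken between libraries of the same replicate number, with 1 marker for each number. The scale compresses the differences of Cnmd, Ucma, Matn1 and Matn3, and to a lesser degree those of Sox5 and Comp. All 3 markers lie below 0 for 9 genes, and replicate 3 is set apart from the other two for Comp (-3.85), Acan (-3.24) and Hapln1 (-0.82).

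Replicate 3 lay above the other WT libraries for some of the genes and below them for others. Relative to the mean of WT replicates 1 and 2, WT replicate 3 was higher for Comp (by 1.40 on the log2(CPM + 2) scale), Acan (0.37) and Sox5 (0.17) and lower for Ucma (-1.17), Cnmd (-0.999), Hapln1 (-0.61), Sox9 (-0.61) and Sox6 (-0.41). TCKO replicate 3 was the lowest TCKO library for 8 of the 10 genes, with Sox5 and Hapln1 as the exceptions. Sox9 was lowest in the WT library in which Acan and Comp were highest. With both replicate 3 libraries left out, a choice made after seeing the data, 9 genes were still called. That fit measures spread only between replicates 1 and 2, which were close to each other (chi-square per degree of freedom 1.69 and 2.04). Over all tested genes it put 3116 lower and 3121 higher past the adjusted threshold, against 1193 and 1254 in the main fit. Keeping the calls there therefore says little about their strength. The log2 fold changes of the 9 genes were then -1.22 (Sox9), -1.23 (Sox5), -1.31 (Sox6), -2.41 (Acan), -1.89 (Hapln1), -1.97 (Comp), -1.57 (Matn1), -4.15 (Cnmd) and -3.31 (Ucma).

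Levels are compared between genes in RPKM, which divides by the summed exon length of each gene. In WT the order was Acan (40.5 ± 6.35 RPKM, SD, n = 3), Sox9 (23.3 ± 5.50), Hapln1 (22.0 ± 5.04), Cnmd (20.1 ± 7.66), Comp (19.8 ± 12.5), Sox6 (5.49 ± 0.878), Ucma (5.15 ± 2.93), Matn1 (1.45 ± 0.527), Sox5 (0.899 ± 0.115) and Matn3 (0.282 ± 0.0817). Of the neighbours in that order, Acan stood above Sox9, Comp above Sox6 and Sox5 above Matn3 without overlap between libraries, and the other neighbours overlapped. Acan was at percentile 90.2 of the tested genes and Matn3 at percentile 2.68.

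In TCKO the order opened with Sox9 (11.01 RPKM), Hapln1 (7.49), Acan (6.22), Comp (2.72) and Sox6 (2.20). It went on with Cnmd (0.924), Matn3 (0.503), Ucma (0.446), Sox5 (0.363) and Matn1 (0.335). Sox9 stood above Hapln1, Acan above Comp and Sox6 above Cnmd without overlap. The gene for the transcription factor thus ranked above every matrix gene of the 10 in TCKO, while in WT Acan ranked above it, and Cnmd went from percentile 80.3 to percentile 13.1 of the tested genes.

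Profiles were compared by Pearson r of log2(CPM + 2) over the 6 libraries, which share 2 genotypes and the replicate 3 offset. Among non-members with a mean of at least 100 counts, the genes most like Acan were Col2a1 (0.9989), Runx3 (0.9984) and Antxr1 (0.9979). Col2a1 encodes the chief collagen of cartilage and Runx3 a runt-domain factor of chondrocytes. The genes most like Cnmd were Fam180a (0.9993), Clec11a (0.9991) and Parp3 (0.9984), and those most like Sox9 were Ski (0.9998), Cog4 (0.9993) and Rdh14 (0.9985). Pearson r does not measure the size of a change. The log2 fold changes were -0.52 for Ski (adjusted p = 0.0123), -0.24 for Cog4 (0.0625) and -0.22 for Rdh14 (0.139). Among the 10 genes themselves Sox9 was most like Ucma (0.986) and least like Comp (0.737) among those that fell, and Sox6 was most like Cnmd (0.998). The added 2 compresses low values such as those of Cnmd and Ucma in TCKO. All these correlations are descriptions over 6 libraries with no test.

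Genes related to the 10 were read from the same fit by lists. All 8 cartilage collagens were tested and 7 were called lower, with a median log2 fold change of -2.56. Col2a1 (-3.13 ± 0.17, SE, adjusted p = 9.69e-05), Col9a2 (-3.83 ± 0.22, adjusted p = 9.82e-05), Col11a1 (-2.10 ± 0.14, adjusted p = 0.000130) and Col11a2 (-3.02 ± 0.27, adjusted p = 0.000455), which form the heterotypic fibril of cartilage, had the lowest p of this list. Of 18 other genes for non-collagen cartilage matrix, 11 were tested, 4 were called lower and 1 higher (median -0.89). The 4 were Smoc1 (-2.49, adjusted p = 0.00186), Prelp (-2.38, adjusted p = 0.00505), Fmod (-1.93, adjusted p = 0.00100) and Susd5 (-1.81, adjusted p = 0.00329). Prg4, which encodes the joint lubricant lubricin, was higher (1.33 ± 0.37, adjusted p = 0.0440), and its annotated interval overlaps that of Tpr.

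The paralogs of the matrix genes moved in both directions. Of 13, 9 were tested, 2 were called lower and 1 higher (median -0.42). Matn4 (-2.21 ± 0.42, SE, adjusted p = 0.0106) and Tnmd (-1.03 ± 0.21, adjusted p = 0.0132), the tenomodulin relative of Cnmd, were lower, and Tnmd was no longer over 2-fold with the replicate block. Thbs3, a thrombospondin related to Comp, was higher (1.01 ± 0.12, adjusted p = 0.00141), and Thbs4 did not pass (-1.43 ± 0.56, adjusted p = 0.122). Vcan, the proteoglycan related to Acan that is made by mesenchyme, gave -0.10 (adjusted p = 0.398), with means of 474 ± 17.0 and 442 ± 19.9 CPM (SD, n = 3) in WT and TCKO. Vcan is named here after its values were seen.

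Among 16 other SOX genes 5 had enough counts to be tested, and 0 were called lower. Sox11 (1.31 ± 0.15, SE, adjusted p = 0.00141) and Sox7 (1.21 ± 0.33, adjusted p = 0.0428) were called higher, and Sox4 rose by less than 2-fold (0.57 ± 0.13, adjusted p = 0.0206). Sox12 did not pass (0.45 ± 0.14, adjusted p = 0.0709). Sox11 and Sox4, SoxC factors of immature mesenchyme, went from 11.1 ± 1.89 to 27.4 ± 2.95 CPM and from 266 ± 46.4 to 396 ± 18.3 CPM (SD, n = 3). Sox8, the SOX9 relative, held 7, 12 and 14 counts in the WT libraries against 4, 4 and 5 in the TCKO libraries. Its CPM was lower in TCKO without overlap, but it was too low to be tested.

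Of 16 chondrocyte regulators 11 were tested, with 2 called lower and 1 higher, and 7 lower and 2 higher at any fold (median -0.68). With the replicate block 3 were called lower. Runx3 fell (-1.85 ± 0.14, SE, adjusted p = 0.000222), as did, by under 2-fold, Wwp2 (-0.92 ± 0.15, adjusted p = 0.00566), which hosts a cartilage microRNA in its introns, and Trps1 (-0.70 ± 0.13, adjusted p = 0.00940). Bmpr1b, a BMP receptor of limb cartilage, rose (2.11 ± 0.21, adjusted p = 0.000728).

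The enzymes that build the chondroitin sulfate chains of aggrecan were for the most part not called. Of 20 genes 18 were tested, 1 was called lower and 0 higher, and the median was -0.07. The called gene was Xylt1 (-1.45 ± 0.20, SE, adjusted p = 0.00285), which attaches the first sugar to the core protein. Csgalnact2 (-0.64, adjusted p = 0.00491) and the sulfate transporter Slc26a2 (-0.43, adjusted p = 0.0264) were lower and the sulfotransferase Chst11 (0.81, adjusted p = 0.0101) higher by under 2-fold.

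The proteases that cut aggrecan, COMP and matrilins moved in both directions, with 8 of 10 tested, 1 called lower and 1 called higher (median 0.06). Adamts5, the main aggrecanase in mice, fell from 737 ± 237 to 180 ± 4.61 CPM (SD, n = 3, -2.04 ± 0.23, SE, adjusted p = 0.00127). Stromelysin, Mmp3, rose from 0.732 ± 0.416 to 12.2 ± 8.35 CPM (4.06 ± 0.76, adjusted p = 0.00998). Adamts12, which degrades COMP, rose by less than 2-fold (0.70 ± 0.12, adjusted p = 0.00644), and Adamts1 fell by less than 2-fold (-0.66 ± 0.15, adjusted p = 0.0213).

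**Figure D4:**
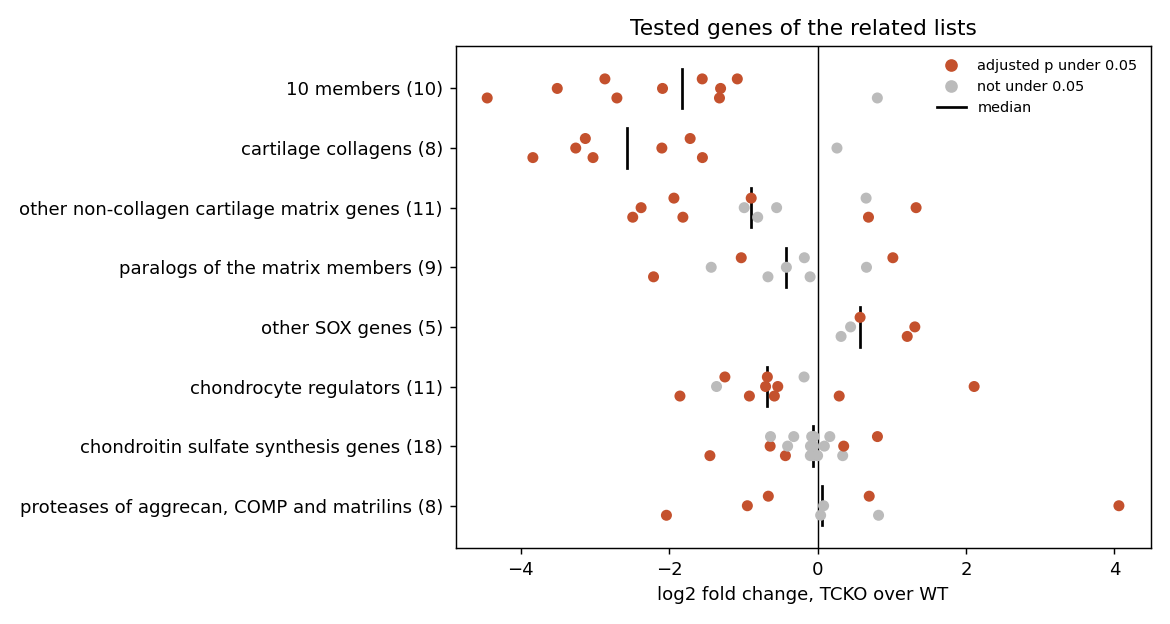
Log2 fold change of TCKO over WT (x axis) for every tested gene of the 10 members and of the related lists, with the number tested in brackets, red for an adjusted p under 0.05 and a bar at the median. The members (median -1.82) and the cartilage collagens (median -2.56) lie mostly left of 0, the 5 other SOX genes lie right of it (median 0.57), and the synthesis genes for chondroitin sulfate centre near 0 (median -0.07).

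In RNA from a whole culture, fewer cartilage-type cells and less RNA per such cell cannot be told apart, and markers of other cells also differed. Defining osteoblast markers were present in part: Runx2, Sp7 and both type I collagen genes were tested, whereas osteocalcin (Bglap) held at most 2 counts and Dmp1 at most 3. Sp7 stood at 108, 112 and 283 CPM in WT against 31.3, 31.3 and 103 CPM in TCKO. The groups did not overlap, but its change did not pass the test (-1.59 ± 0.55, SE, adjusted p = 0.0877). Of 13 osteoblast markers 9 were tested, 1 (Alpl, -3.54 ± 0.62, SE, adjusted p = 0.00743) was called lower and 5 were lower at any fold (median -0.68), among them Sparc (-0.95) and Runx2 (-0.45). Their summed level was 39116 to 42801 CPM in WT and 19020 to 27821 CPM in TCKO. Col1a1 alone held 21498 to 23204 CPM in WT and 11333 to 16303 CPM in TCKO. With the replicate block 2 of the osteoblast markers were called.

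Of 9 macrophage and osteoclast markers, all tested, Adgre1 (-1.44 ± 0.27, SE, adjusted p = 0.0100) and Csf1r (-1.21 ± 0.29, adjusted p = 0.0253) were called lower, 4 with the replicate block, and the summed level of 404 to 763 CPM in WT overlapped with 163 to 578 CPM in TCKO. At any fold 2 were lower past the adjusted threshold, and 8 with the block. Within replicates 1, 2 and 3 the sum went from 750 to 540, from 763 to 578 and from 404 to 163 CPM. Of 7 tendon and ligament markers, 6 were tested and 2, Fmod and Tnmd, called lower (1 with the replicate block), at 1736 to 2362 CPM against 759 to 1090 CPM. Fmod alone held 1181 to 2041 CPM in WT and 434 to 502 CPM in TCKO. Fmod and Tnmd were also counted in the matrix and paralog lists above, and Scx did not pass (-0.88, adjusted p = 0.099). Of 6 Schwann cell and glial markers 3 were tested and S100b, a calcium-binding protein that chondrocytes also make, was called lower (-3.42 ± 0.30, adjusted p = 0.000428), with Sox10 at 3 to 13 counts in every library and a summed level of 19.7 to 26.5 CPM against 3.37 to 5.14 CPM. In the fibroblast and mesenchyme list 7 of 8 were tested, with S100a4 (-1.82) called lower and Dpp4 (3.17) and Thy1 (1.18) called higher, at 4443 to 4632 CPM against 4624 to 4970 CPM.

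The endothelial list had 1 tested gene of 7, Kdr (6.12 ± 0.67, SE, adjusted p = 0.00111), while Pecam1 and Cdh5 held at most 7 counts in any library, and its sum was 2.39 to 3.52 CPM in WT and 34.7 to 95.3 CPM in TCKO. Of 7 skeletal muscle markers 3 were tested and Acta1 was called higher (3.14 ± 0.47, adjusted p = 0.00416), with Myf5 and Pax7 at 0 in every library and a sum of 8.28 to 29.2 CPM against 30.8 to 81.7 CPM. Ttn (-0.66, adjusted p = 0.570) and Myh3 (-0.13, adjusted p = 0.924) did not pass the test. In replicate 3 the sums were close, at 29.2 CPM in WT and 30.8 CPM in TCKO. The part of these cell types in the differences of the 10 genes was not tested.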

How the data were processed

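Poly(A) RNA was sequenced from 6 libraries of primary calvarial osteoblasts (3 WT, 3 TCKO), prepared with a directional kit. According to the submitters' processing notes the authors aligned reads to GRCm38 (Ensembl release 99 annotation) with STAR 2.7.0e and counted them per gene with featureCounts 2.0.0, and CASAVA and DESeq2 are also listed. The deposited values are raw counts per gene with no normalization, and the strand setting is not given in the sources used here, so overlapping and antisense genes are less certain. Symbols were added by gene identifier (found for 55144 genes), and 0 sample columns were left unassigned.

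Counts were filtered with filterByExpr, scaled by TMM and tested with the quasi-likelihood test of edgeR 4.0.16 in R 4.3.3, with Benjamini-Hochberg adjustment over 13826 genes. Calls required both an adjusted p-value under 0.05 and a change of more than 2-fold. CPM and RPKM used the TMM-scaled totals and the deposited exon lengths. Ratios of 2 genes used CPM plus 2 (plus 0.5 as an alternative) and exact permutation tests. Floors of 3 counts cover counting error only. The script was tested on simulated data.

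The genes, the related lists and the tests were chosen with earlier results of these data known. Named genes were the 10 members, Tet1 to Tet3, up to 4 tested genes of lowest p from each list, any called gene opposite to its list's median, and the 3 most like profiles for Sox9, Acan and Cnmd. Some genes that this rule names are not reported here. Alternatives were RLE and upper-quartile factors, no filter, a mean of at least 50 counts, an RPKM minimum of 0.24, DESeq2 1.42.0, the replicate number as a block, replicates 1 and 2 summed with and without that block, and each library left out, and leaving out both replicate 3 libraries was added after seeing the data. Pairing by replicate number was checked. Deviations from group means correlated by 0.238, 0.249 and 0.372 across 13826 genes for numbers 1, 2 and 3. Replicate 3 correlated negatively with replicates 1 and 2 of the other genotype (-0.314 to -0.281). Deviations of a gene cancel out within a genotype, so a positive value for number 3 forces such negative values on average. They are not separate evidence. TCKO replicate 1 correlated slightly more with WT replicate 2 (0.263) than with WT replicate 1. The data thus set replicate 3 of both genotypes apart, and the pairing of numbers 1 and 2 rests on the numbering alone.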

Additional observations from a re-analysis of the deposited data

How the results depend on the processing

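Over the alternatives, 157 fold changes of the 10 genes were computed, of which 141 stayed on the same side of the adjusted threshold, 16 no longer passed it and 0 changed direction. Sox9 was under 2-fold in 2 further fits, so that 18 calls were lost in all. With the replicate block 9 of 10 genes were called lower, and no call among the 10 changed. DESeq2 also called 9, and leaving out 1 library at a time left between 6 and 9 called and between 7 and 9 past the adjusted threshold at any fold. Summing replicates 1 and 2 left 3 genes called and 3 past the threshold at any fold, and 0 of the targeted genes (2 otherwise). It left 146 genes called lower and 178 higher among all genes, in a fit with 2 values per genotype. A mean of at least 50 counts, which removes Matn1, Matn3 and Ucma and tests 10957 genes, left 288 lower and 255 higher, and leaving out both replicate 3 libraries, chosen after seeing the data, gave 663 higher. Each library left out in turn gave 300 to 511 genes called lower and 295 to 538 higher. With the replicate block, counts of genes called lower became 1 for the paralogs of the matrix genes, 2 for osteoblast markers, 3 for chondrocyte regulators (2 otherwise), 1 for tendon and ligament markers and 4 for macrophage and osteoclast markers, where the cause was not tested. Depth limited Matn1, Matn3 and Ucma, with between 0 and 58 counts per library.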
